A study of Homo sapiens with 24 samples.

Results

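T47D is an established breast cancer cell line of luminal type that expresses the estrogen and progesterone receptors. The comparison described here is between T47D cells kept in 0.5% oxygen for 16 h in a hypoxia chamber and T47D cells kept in 21% oxygen, and it asks which transcripts respond to low oxygen in this line. The 6 T47D libraries, 3 from each oxygen state, were taken by their sample labels from the 24 RNA-seq libraries of the series, which also cover A549, HCT116 and PC3 cells. No allele, transgene or drug separates the groups, both of which were grown in DMEM with fetal bovine serum. All 6 libraries come from 1 cell line, and no label says whether the replicates were separate cultures, so p values measure the spread between these libraries only. Of 23106 gene symbols counted, 14085 passed the filter on low counts and were tested. Levels are given as CPM (counts per 1e6 counts of the library after TMM normalization), changes as log2 fold changes of hypoxia against normoxia, and values after ± on the log2 scale are SE.

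Cells sense oxygen through the HIF hydroxylases. In normoxia these enzymes mark the HIF-α subunits for capture by the VHL ubiquitin ligase and destruction, and when oxygen falls the HIF-α subunits are stabilized, pair with ARNT (HIF-1β) and bind the core motif ACGTG or GCGTG near their target genes. The targets are known for moving ATP production from mitochondria to glycolysis, for handling the acid that follows, for recruiting vessels and red cells, and for slowing their own induction by restoring the hydroxylases. In breast tumors hypoxia is also known as a condition in which estrogen receptor signaling and proliferation can change.

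The luminal markers fitted the label. All 9 luminal markers were tested and their summed level was 10597 to 17214 CPM in normoxia and 19343 to 29899 CPM in hypoxia. The basal keratins KRT5 and KRT14 were under 1 CPM in every library. The 4 basal or myoepithelial markers together summed to 13.56 to 15.21 CPM in normoxia and 12.04 to 16.67 CPM in hypoxia. Most of this was ACTA2, with means of 13.73 and 12.77 CPM, and TP63 reached 1.04 CPM in hypoxic replicate 1. Of the fibroblast markers only COL1A1 exceeded 1 CPM, the 4 endothelial markers summed to at most 0.276 CPM, and the 5 leukocyte markers summed to 1.46 to 3.32 CPM. The libraries held 36578554 to 61004276 counts, and 3 counts, taken as the floor of a library, corresponded to 0.0487 to 0.0802 CPM. The first principal component (54.3% of the variance) separated the oxygen states, and the second (24.2%) separated both replicates 3 from the others. Hypoxic replicate 3 stood apart. Its genes in the fifth with the longest transcripts were 0.55 log2 units lower, relative to the fifth with the shortest, than in the mean of the 6 libraries, where the other hypoxic libraries were 0.38 and 0.47 higher, and its ribosomal RNA precursor RNA45S5 was at 4197 CPM against 424 to 1164 CPM elsewhere. In the normoxic replicates 1, 2 and 3 the nuclear RNA MALAT1 was at 2166, 1642 and 507 CPM. GC content was compared in the same way, as genes richest in GC relative to those poorest. The values were 0.11, 0.21 and 0.41 in hypoxic replicates 1, 2 and 3 and -0.56, -0.06 and -0.15 in the normoxic replicates. Each hypoxic library was thus above each normoxic library, and normoxic replicate 1 was the most extreme. The part of GC content in the calls was not tested beyond the GC and length correction given below. For numbers of calls and for some gene lists, fits without single libraries are given below. For single genes the fit without normoxic replicate 1 is mostly the one given.

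Hypoxia upregulated 922 genes (6.55% of genes tested) and downregulated 942 genes (6.69%). A gene was called when its Benjamini-Hochberg adjusted p, from the quasi-likelihood test of edgeR, was under 0.05 and it changed by more than 1.2-fold. The increases were larger than the decreases. More than 8-fold changes were found for 69 upregulated and 8 downregulated genes, and more than 2-fold changes for 593 and 490. A fit that also held the replicate number as a block called 1281 genes upregulated (9.09%) and 1485 downregulated (10.5%). Counts for the gene lists below are to be read against the shares of the same fit. The groups did not overlap for 2348 genes that were higher in each hypoxic library than in any normoxic library (16.7% of genes tested) and for 2232 that were lower (15.8%). Upregulated genes held up better when single libraries were left out. Calls made in all 6 fits without 1 library numbered 178 upregulated (1.26% of genes tested) and 18 downregulated genes (0.128%), which are 19.3% and 1.91% of the calls. The fewest calls remained without normoxic replicate 1, at 180 upregulated and 19 downregulated. Without normoxic replicate 2 the counts were 322 and 85, and without normoxic replicate 3 they were 1173 and 1643. They were 515 and 363 without hypoxic replicate 1, 538 and 492 without hypoxic replicate 2, and 1549 and 1756 without hypoxic replicate 3. Without both replicates 3 they were 2918 and 3140. On the first principal component, normoxic replicates 1, 2 and 3 were at 57.8, 54.1 and 13.5. The hypoxic libraries were at -39.8, -40.5 and -45.0. The part of this spread in the lost calls was not tested. Genes called in all 6 fits without 1 library are described below as called throughout, and for others the adjusted p without normoxic replicate 1 is given. The hypoxic and normoxic libraries did not overlap for any called gene named below, except COX7B, NDUFA4, ATP5E, MAD2L1, FANCA, CPT1B, PLIN5 and PSMA6. This adds little to the calls, since 910 of the 922 upregulated and 830 of the 942 downregulated genes had no overlap. The largest changes named were also chosen for it.

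**Figure D1:**
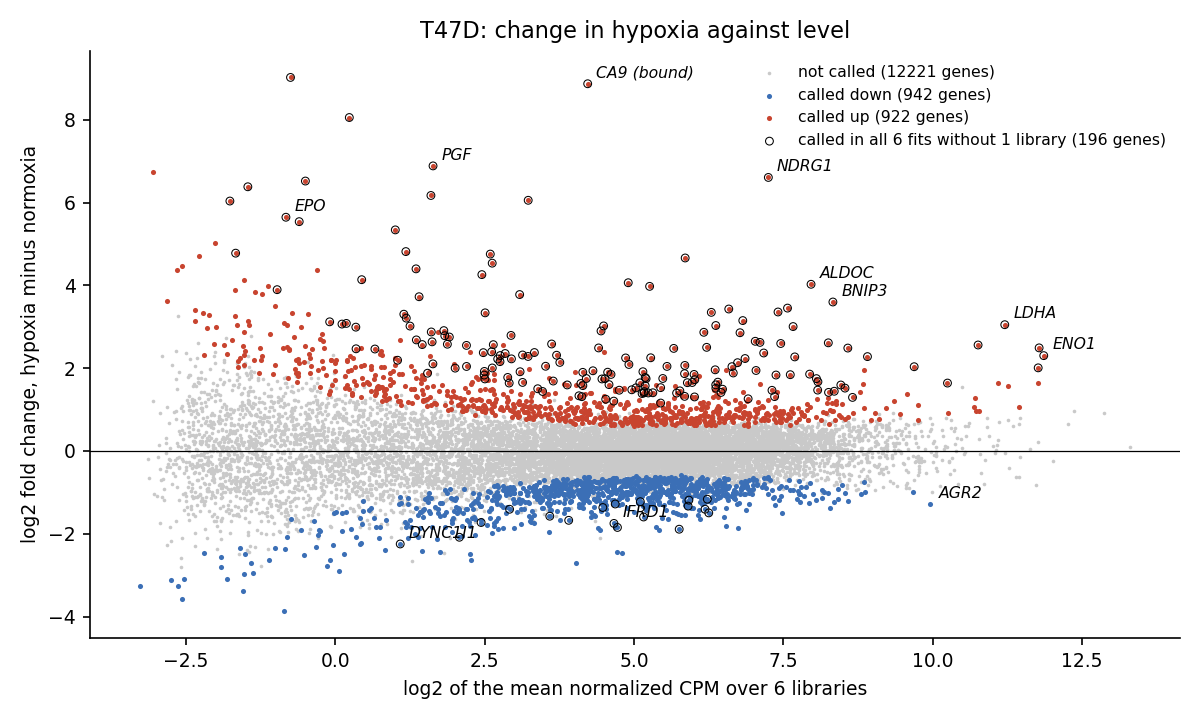
Log2 fold change of hypoxia against normoxia (y axis) against the log2 of the mean normalized CPM (x axis) for the 14085 genes tested in T47D cells, with the 922 upregulated genes in red, the 942 downregulated genes in blue and calls made in all 6 fits without 1 library ringed. CA9, at 0 counts in normoxia, is drawn at its lower bound of 8.87, and other genes at 0 in normoxia are drawn at fitted values that are no bounds; the ringed genes lie mostly above 0.

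The oxygen-sensing machinery responded through its feedback inhibitors, while no subunit of the transcription factor was called upregulated. Of 10 tested members of a list of HIF subunits and sensors, 3 were upregulated and 1 was downregulated, with a median log2 fold change of 0.43 (-0.01 over all genes tested). EGLN3, the prolyl hydroxylase PHD3, was at 3.77, 3.80 and 6.16 CPM in the 3 normoxic libraries and at 76.3, 69.4 and 70.9 CPM in the 3 hypoxic libraries. The groups were far apart, with a log2 fold change of 3.98 ± 0.25 (adjusted p = 1.69e-06). EGLN1, or PHD2, the main HIF hydroxylase of most cells, rose from 41, 42.8 and 56.8 to 242, 251 and 232 CPM (2.37 ± 0.21, adjusted p = 2.61e-05). CITED2 competes with HIF-α for the coactivators CBP and p300. It rose from 36.5, 43.6 and 69.6 to 269, 317 and 319 CPM (2.60 ± 0.26, adjusted p = 7.32e-05), and all 3 genes were called throughout. EGLN2 (PHD1), HIF1AN (the asparagine hydroxylase FIH) and VHL had log2 fold changes of 0.19 ± 0.24, 0.36 ± 0.20 and 0.11 ± 0.21 and did not pass the test.

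HIF1A, which encodes HIF-1α, went the other way at the transcript level. It was at 152, 121 and 161 CPM in normoxia and 87.3, 92.3 and 84.6 CPM in hypoxia, so each hypoxic library was below each normoxic library (-0.72 ± 0.20, adjusted p = 0.0322). The call was made in 1 of the 6 fits without 1 library, that without hypoxic replicate 3, and without normoxic replicate 1 the adjusted p was 0.156. It was not made with the correction for GC content and transcript length (adjusted p = 0.191 with the replicate block). HIF1A has antisense transcripts and the strand setting of the counting is not given in the sources used here, so this value is uncertain. EPAS1, which encodes HIF-2α, was at 31.5, 49.2 and 66.0 CPM in normoxia and 44.2, 55.1 and 45.9 CPM in hypoxia, and these ranges overlapped (-0.02 ± 0.25, adjusted p = 0.972). ARNT was higher in each hypoxic library, at 51.9, 49.8 and 57.9 against 80.0, 84.5 and 62.8 CPM, without passing the test (0.51 ± 0.19, adjusted p = 0.0977, and 0.0358 with the GC and length correction and the replicate block). HIF3A was at 0 counts in 5 libraries and below the floor in hypoxic replicate 1.

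**Figure D2:**
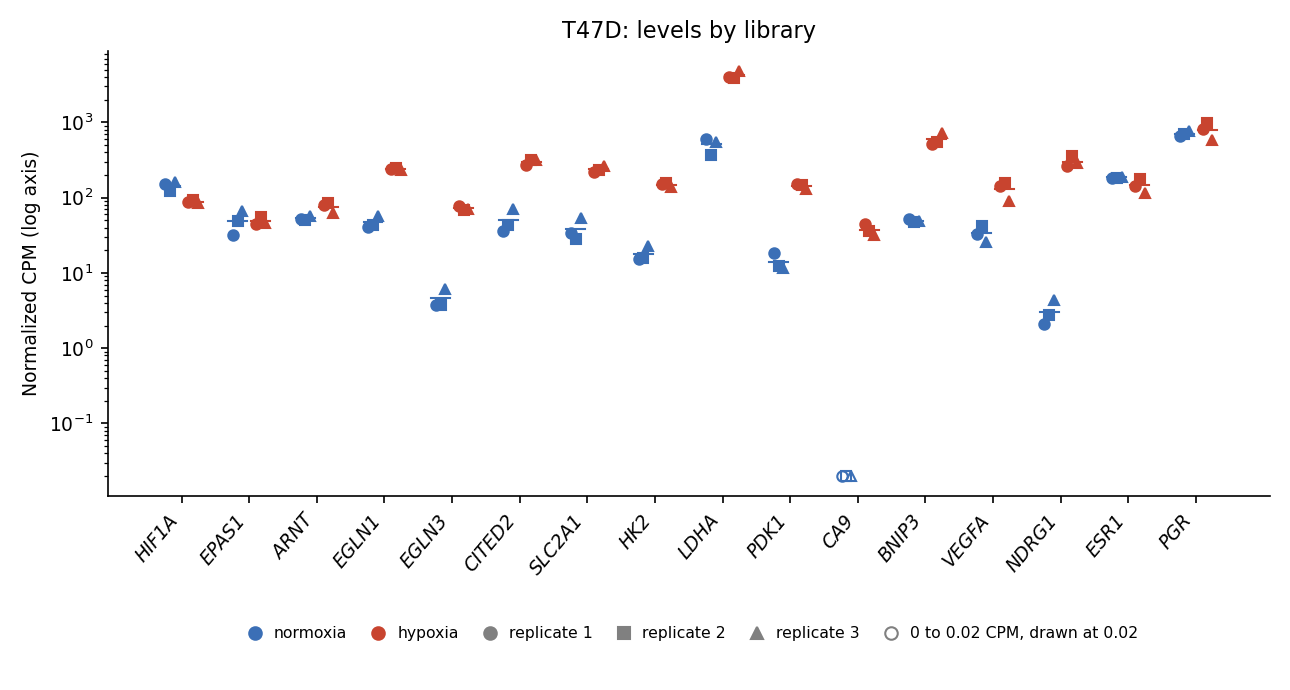
Normalized CPM (log axis) of 16 genes in each T47D library, normoxia in blue and hypoxia in red, with a symbol for each replicate and a line at each group mean; open symbols stand for CA9, at 0 in normoxia. The 3 hypoxic libraries are above the 3 normoxic libraries for ARNT, EGLN1, EGLN3, CITED2, SLC2A1, HK2, LDHA, PDK1, CA9, BNIP3, VEGFA and NDRG1, below them for HIF1A and ESR1, and overlap with them for EPAS1 and PGR.

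Transcripts of glucose uptake, glycolysis and lactate export rose together. Of 21 tested glycolytic enzymes, 17 were upregulated and none was downregulated, with a median log2 fold change of 2.01, and the median over the list, relative to the normoxic mean, was 2.02, 2.0 and 2.24 in the 3 hypoxic libraries. Without normoxic replicate 1, 14 of them were called. LDHA, the lactate dehydrogenase subunit that favors conversion of pyruvate to lactate, was at 602, 373 and 556 CPM in normoxia and at 4010.4, 3857 and 4814 CPM in hypoxia. Each hypoxic library was far above each normoxic library, an increase of 8.28-fold (3.05 ± 0.29, adjusted p = 4.02e-05). Its partner LDHB was silent in these cells, with at most 0.107 CPM in any library, and was not tested. ALDOC, the aldolase C isoform, had the largest change among the enzymes, from 32.1, 21.2 and 33.5 to 400.0, 490.4 and 523 CPM (4.03 ± 0.26, adjusted p = 1.97e-06). The muscle-type ALDOA rose from 995, 880.2 and 1324 to 5835, 5566 and 6578 CPM (2.49 ± 0.28). For both aldolases all hypoxic libraries lay above all normoxic libraries.

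The steps that commit glucose to the pathway were included. HK2, the inducible hexokinase, rose from 15.3, 16.0 and 22.8 to 150.4, 155 and 137 CPM (3.03 ± 0.22, adjusted p = 4.82e-06). PFKFB4, which sets the level of the phosphofructokinase activator fructose 2,6-bisphosphate, was at 15.9, 17.3 and 15.8 CPM in normoxia and 175, 184 and 169.5 CPM in hypoxia (3.43 ± 0.20, adjusted p = 9.01e-07). Phosphofructokinase itself rose more in its platelet form PFKP (2.61 ± 0.23) than in its liver form PFKL (1.42 ± 0.22), as point estimates whose difference was not tested. The lower part of the pathway, which makes ATP, moved as well, with log2 fold changes of 2.28 ± 0.28 for TPI1, 2.56 ± 0.30 for PGK1, 1.64 ± 0.25 for PGAM1, 2.30 ± 0.31 for ENO1 and 2.01 ± 0.29 for PKM. GPI, which follows hexokinase, and the neuronal enolase ENO2 rose by 2.49 ± 0.24 and 1.75 ± 0.22. All of these enzymes were called throughout. Several have processed pseudogenes, and fragments without a unique position had been removed, so their CPM may be low in both states.

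Transporters frame the pathway. SLC2A1 (GLUT1), the basal glucose importer, was at 34.3, 28.6 and 52.9 CPM in normoxia and 221, 229 and 262 CPM in hypoxia (2.62 ± 0.25, adjusted p = 4.65e-05). SLC16A3 (MCT4), which exports lactate, went from 27.8, 27.7 and 35.3 to 294, 329 and 308 CPM (3.36 ± 0.22, adjusted p = 1.97e-06). Both groups were well separated and both genes were called throughout. SLC2A6 was the only other upregulated gene among 10 tested transporters (1.04 ± 0.19, adjusted p = 0.00498, and 0.0568 without normoxic replicate 1).

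The promoters of a few of these genes hold the letters of the HIF core motif, and 4 windows are printed here because their genes carry the acid, lactate, mitophagy and sterol results of this comparison. Each window runs from 250 bases before to 50 bases after the gene's start in RefSeq, on the gene's own strand and on GRCh38.p14, which is not the build of the counts. Capitals mark the HIF core, searched as ACGTG and GCGTG on both strands (read on the other strand as CACGT and CACGC). A palindromic CACGTG, which is also the E-box of MYC and clock proteins, counts as 2 matches because it is read on both strands. CA9 lies at chr9:35673678-35673977 on the plus strand, LDHA at chr11:18394313-18394612 on the plus strand, BNIP3 at chr10:131981874-131982173 on the minus strand and INSIG1 at chr7:155297628-155297927 on the plus strand.
CA9: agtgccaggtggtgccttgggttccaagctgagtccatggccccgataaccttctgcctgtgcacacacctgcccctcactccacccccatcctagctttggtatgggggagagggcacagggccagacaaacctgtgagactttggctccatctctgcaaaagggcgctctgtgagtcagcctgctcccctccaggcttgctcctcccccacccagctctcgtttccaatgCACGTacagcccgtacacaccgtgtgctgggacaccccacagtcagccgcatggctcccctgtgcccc
LDHA: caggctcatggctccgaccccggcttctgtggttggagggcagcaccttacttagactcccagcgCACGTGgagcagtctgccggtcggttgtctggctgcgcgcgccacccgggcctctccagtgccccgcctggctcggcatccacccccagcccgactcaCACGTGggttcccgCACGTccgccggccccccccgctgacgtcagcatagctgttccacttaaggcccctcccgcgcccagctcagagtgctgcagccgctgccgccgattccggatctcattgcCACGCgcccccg
BNIP3: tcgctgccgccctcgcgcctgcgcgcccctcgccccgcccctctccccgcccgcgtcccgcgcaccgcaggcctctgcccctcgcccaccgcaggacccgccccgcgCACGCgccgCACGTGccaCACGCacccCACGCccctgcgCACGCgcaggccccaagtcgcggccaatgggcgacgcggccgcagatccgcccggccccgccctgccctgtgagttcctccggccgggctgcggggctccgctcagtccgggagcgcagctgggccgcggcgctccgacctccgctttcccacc
INSIG1: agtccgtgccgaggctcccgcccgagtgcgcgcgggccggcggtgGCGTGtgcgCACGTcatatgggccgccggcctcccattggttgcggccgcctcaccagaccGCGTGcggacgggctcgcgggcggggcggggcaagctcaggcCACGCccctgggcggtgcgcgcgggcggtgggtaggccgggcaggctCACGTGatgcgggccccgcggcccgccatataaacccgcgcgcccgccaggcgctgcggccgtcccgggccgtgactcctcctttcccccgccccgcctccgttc
The CA9 window held 1 match, 18 bases before the start, and the LDHA, BNIP3 and INSIG1 windows held 6 each. Of all 35116 RefSeq windows, 48.4% held at least 1 match, and of the 11020 tested genes with a window, 62.5%. Among members of the lists with a window, the share was 15 of 20 glycolytic enzymes (75.0%), 17 of 21 sterol genes (81.0%), 39 of 65 respiratory chain subunits (60.0%) and 33 of the 48 consensus HIF target genes, of which 43 had a window (76.7%). It was lower for other lists with many upregulated members, at 5 of 10 collagen enzymes and 4 of 8 glucose and lactate transporters (both 50%) and 13 of 22 secreted factors (59.1%), and it was 22 of 23 for chaperones and unfolded protein response genes (95.7%). GC content differs too, with a median of 58.7% over all windows and 69.2%, 67.7%, 61.0% and 69.3% in these lists. A match to 5 bases is a description of the sequence and not a binding site. EGLN3 and PDK1, both strongly upregulated, had no match in this window, which says nothing of more distant sites. In all, 8 windows were looked at by name, and those of ALDOC and SLC2A1, also not printed, held 5 matches and 1 match. Over all genes with a window the share differed little by call, at 441 of 701 upregulated (62.9%), 479 of 748 downregulated (64.0%) and 5972 of 9571 uncalled genes (62.4%), and 76.0% to 79.4% of the genes of these 3 classes had a window.

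Pyruvate was the next branch point. PDK1, a kinase that switches off pyruvate dehydrogenase and so keeps pyruvate out of mitochondria, was at 18.1, 12.5 and 11.5 CPM in normoxia and 149.7, 149 and 131 CPM in hypoxia (3.35 ± 0.23, adjusted p = 2.73e-06). PDK3 rose from 33.0, 29.2 and 36.7 to 86.2, 89.3 and 71.3 CPM (1.32 ± 0.20, adjusted p = 0.0014). Both kinases were called throughout. MPC2, a subunit of the carrier that brings pyruvate into mitochondria, fell from 492, 530.0 and 331 to 164, 135 and 220.4 CPM (-1.38 ± 0.26, adjusted p = 0.00655, and 0.0742 without normoxic replicate 1). Of 14 tested genes of pyruvate entry, 2 were upregulated and 1 was downregulated, or 4 and 1 with the replicate block, and the median log2 fold change was 0.15.

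Most of the glycogen genes that passed the test rose. Of 16 tested genes, 6 were upregulated and 1 was downregulated. GYS1, the glycogen synthase of non-hepatic tissues, rose from 32.8, 41.2 and 43.3 to 165, 181 and 135 CPM (2.04 ± 0.21, adjusted p = 8.77e-05), and the branching enzyme GBE1 from 18.6, 14.9 and 21.5 to 81.5, 78.4 and 66.8 CPM (2.04 ± 0.21). PPP1R3C, which targets protein phosphatase 1 to glycogen, rose from 5.99, 5.42 and 7.84 to 38.8, 33.0 and 36.3 CPM (2.49 ± 0.22, adjusted p = 1.81e-05). The phosphorylase PYGL, which breaks glycogen down, also rose, from 13.7, 15.3 and 15.7 to 58.8, 66.6 and 43.0 CPM (1.91 ± 0.21, adjusted p = 0.000158), as did PGM1 (2.13 ± 0.24), which interconverts the sugar phosphates of both directions. These 5 genes were called throughout. The exception was GYG1, the glycogenin that primes new particles, at 128, 90.7 and 114 CPM in normoxia and 48.2, 43.9 and 69.9 CPM in hypoxia (-1.04 ± 0.23, adjusted p = 0.0137, and 0.118 without normoxic replicate 1).

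Nuclear-encoded subunits of the respiratory chain had the lowest median of the lists described here, and the libraries of the hypoxic group disagreed on it. Of 78 tested subunits, 9 were downregulated (against 6.69% of all genes tested) and none was upregulated. The median log2 fold change was -0.46, and 62 of the 78 had a negative value. Relative to the normoxic mean the median over the list was -0.72, -0.83 and 0.10 in hypoxic replicates 1, 2 and 3, against 0.16, -0.02 and -0.16 in the normoxic libraries. Hypoxic replicates 1 and 2 were therefore low and replicate 3 lay among the normoxic libraries. The 4 called subunits with the largest decrease were COX7B and NDUFA4 of complex IV, ATP5E of the ATP synthase and NDUFB3 of complex I. NDUFB3 was at 74.2, 81.4 and 44.7 CPM in normoxia and 26.5, 24 and 41.5 CPM in hypoxia (-1.12 ± 0.27, adjusted p = 0.0194, and 0.14 without normoxic replicate 1). NDUFA4 was at 576, 741 and 289.9 CPM in normoxia and 222, 179 and 293 CPM in hypoxia, and hypoxic replicate 3 was just above normoxic replicate 3 (-1.21 ± 0.32, adjusted p = 0.0283, and 0.165 without normoxic replicate 1). For COX7B and ATP5E the adjusted p without that library was 0.233 and 0.166. The number called moved from 0 without normoxic replicate 1, normoxic replicate 2 or hypoxic replicate 1, and 1 without hypoxic replicate 2, to 53 without hypoxic replicate 3 and 59 without both replicates 3. With the correction for GC content and transcript length and the replicate block it was 9 again, 2 subunits were called upregulated, the median was -0.20, and none of these 4 subunits was called. Transcripts of this list are short (median 1591 bases, against 3900 for upregulated and 3205 for downregulated genes), and the part of transcript length in these values beyond that correction was not tested. COX4I1 had a log2 fold change of -0.08 ± 0.29 and its hypoxia-inducible alternative COX4I2 had no count in any library. NDUFA4L2 stayed near 1 CPM (0.66 ± 0.51, adjusted p = 0.405).

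**Figure D3:**
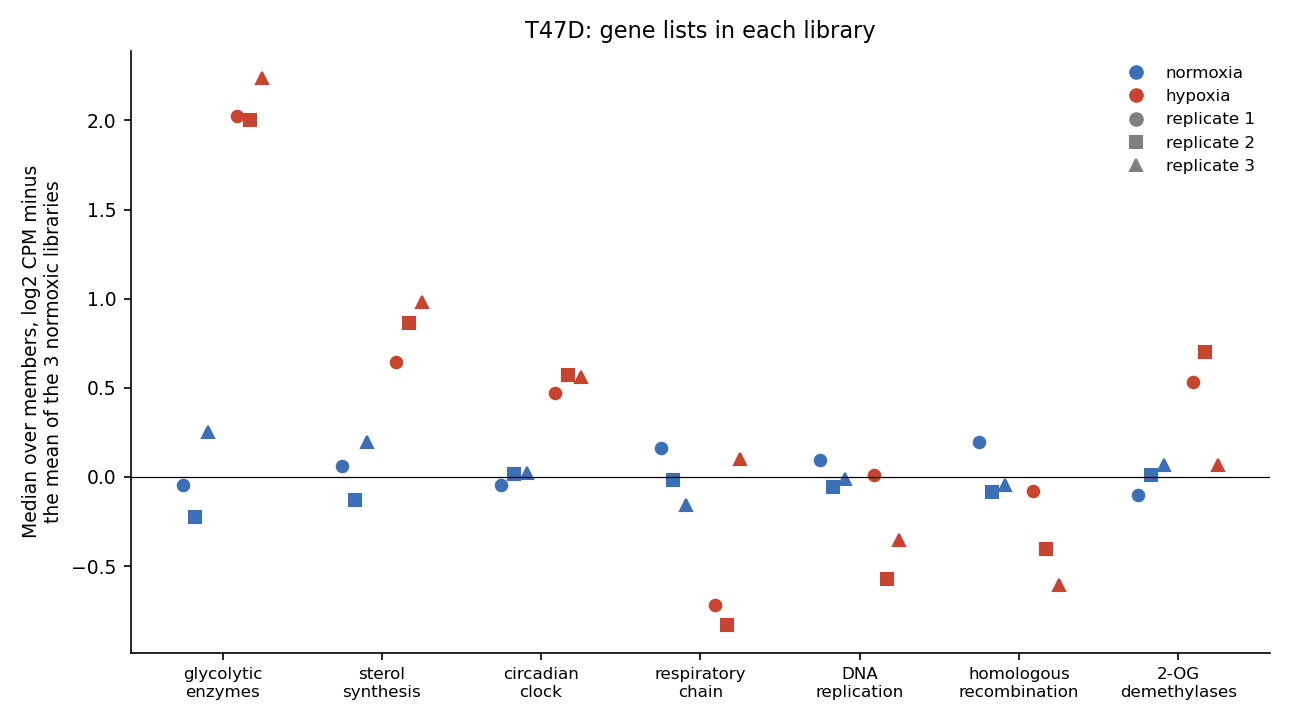
For 7 gene lists, the median over tested members of log2 CPM minus the mean of the 3 normoxic libraries (y axis) in each T47D library, normoxia in blue and hypoxia in red, with a symbol for each replicate. Glycolytic enzymes, sterol genes and clock genes are higher in all 3 hypoxic libraries, whereas hypoxic replicate 3 departs from replicates 1 and 2 for the respiratory chain (0.10 against -0.72 and -0.83) and for the 2-oxoglutarate-dependent demethylases.

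CA9, the cell-surface carbonic anhydrase that handles acid from glycolysis, went from silent to expressed. No count was found in any normoxic library, and the hypoxic libraries held 44.5, 35.7 and 32.1 CPM. Set against the largest normoxic floor, 3 counts in a library, the hypoxic mean was at least 467-fold higher (adjusted p = 2.06e-07). The median over 14 tested carbonic anhydrases and acid-base transporters was 0.13, and the same with CA9 at its bound. Of the 14, 3 were upregulated (against 6.55% of all genes tested) and none was downregulated. The others were CA11, which lacks catalytic activity (1.52 ± 0.31, adjusted p = 0.0095), and the mitochondrial CA5B (1.09 ± 0.21, adjusted p = 0.00676), and neither was called without normoxic replicate 1 (adjusted p = 0.0747 and 0.0643). CA12, the other tumor-associated surface enzyme and a known estrogen receptor target, was at 576, 579 and 681 CPM in normoxia and 546, 578 and 564 CPM in hypoxia (-0.12 ± 0.22, adjusted p = 0.734). The groups overlapped.

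Transcripts of factors that signal to vessels and blood were induced. Of 26 tested secreted and angiogenic factors, 15 were upregulated and none was downregulated, with a median log2 fold change of 1.08. VEGFA, the main angiogenic factor, was at 32.5, 42.5 and 25.7 CPM in normoxia and 145, 158 and 89.6 CPM in hypoxia (1.96 ± 0.26, adjusted p = 0.000642), and hypoxic replicate 3 was the lowest of its group. VEGFB rose from 25.6, 30.4 and 30.7 to 66.3, 70.7 and 91.5 CPM (1.4 ± 0.20). PGF, placental growth factor, went from 0, 0.0657 and 0.0686 to 8.93, 5.68 and 3.90 CPM (6.89 ± 0.59, adjusted p = 1.68e-05). ANGPTL4, an inhibitor of lipoprotein lipase, reached 109, 120.3 and 106 CPM from 3.37, 4.47 and 5.33 CPM (4.66 ± 0.24, adjusted p = 2.56e-07). The vasodilator peptides ADM and apelin (APLN) rose by 1.60 ± 0.21 and 4.40 ± 0.38 on the log2 scale. EPO, the red cell hormone made mainly by kidney, was detected in this breast line. It had 3 counts in the normoxic libraries together and 186 in the hypoxic libraries, a ratio of 56.8 with a 95% counting interval of 19.1 to 278 (adjusted p = 0.00107), and was at 1.23, 0.779 and 1.30 CPM in the hypoxic libraries. IGFBP6 was called throughout (2.22 ± 0.24), and IGFBP3, which had 0, 0.0164 and 0.120 CPM in normoxia, was lost without normoxic replicate 1 (adjusted p = 0.112). Without normoxic replicate 1, 7 of the factors were called, and without normoxic replicate 2, 8.

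Enzymes that modify collagen formed a compact group. Of 11 tested, 6 were upregulated and none was downregulated (median 1.48). LOX, which cross-links collagen, was at 0.508, 0.427 and 0.686 CPM in normoxia and 11.5, 12.6 and 7.12 CPM in hypoxia (4.26 ± 0.35, adjusted p = 1.08e-05). The prolyl 4-hydroxylase subunits P4HA1 and P4HA2 rose from 32.2, 18.1 and 29.6 to 206, 197 and 174 CPM and from 16.5, 15.1 and 20.5 to 131, 132 and 117 CPM (2.86 ± 0.25 and 2.87 ± 0.21). The lysyl hydroxylases PLOD1 and PLOD2 changed by 1.88 ± 0.22 and 1.52 ± 0.24. All 5 were called throughout, and no hypoxic library overlapped with a normoxic one.

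The wider family of 2-oxoglutarate-dependent demethylases, which like the HIF hydroxylases need oxygen, had 6 upregulated members of 22 tested and none downregulated (median 0.41). KDM3A, a demethylase of histone H3 lysine 9, stood out at 23.8, 20.3 and 22.9 CPM in normoxia and 148, 144 and 87.8 CPM in hypoxia (2.50 ± 0.24, adjusted p = 3.82e-05), and was the only member called throughout. KDM5B, which acts on lysine 4 and is known in luminal breast cells, rose from 135, 125 and 191 to 312, 389 and 284 CPM (1.13 ± 0.24, adjusted p = 0.0111, and 0.112 without normoxic replicate 1). ALKBH5, an RNA demethylase, went from 58.5, 66.6 and 89.0 to 143, 153 and 154 CPM (1.07 ± 0.21, adjusted p = 0.00769, and 0.0862 without normoxic replicate 1). Hypoxic replicate 3 was lower on this list (median 0.53, 0.70 and 0.07 in replicates 1, 2 and 3), and without it 12 members were called. These transcripts are long, with a median of 7057 bases.

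Among 23 tested mitophagy and autophagy genes, 4 were upregulated and 1 was downregulated, and the receptors that tag mitochondria for removal led. BNIP3 was at 51.6, 47.2 and 48.6 CPM in normoxia and 518, 545 and 723 CPM in hypoxia (3.60 ± 0.24, adjusted p = 2.13e-06). BNIP3L (NIX) rose from 122, 92.9 and 105 to 389, 387 and 379.9 CPM (1.86 ± 0.21, adjusted p = 0.000172). Both were called throughout. PINK1, the kinase of the alternative mitophagy route, rose from 19.5, 23.4 and 28.4 to 39.1, 41 and 46.3 CPM, and ATG9A by 0.83 ± 0.20, while ATG12 fell (-0.84 ± 0.21). These 3 lost their call without normoxic replicate 1 (adjusted p = 0.145, 0.13 and 0.147). The median of the list was 0.23.

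Stress pathways moved in parts. Of 22 tested genes of the integrated stress response and of mTORC1 restraint, 4 were upregulated and 4 were downregulated (median 0.03). DDIT4 (REDD1), which restrains mTORC1, was at 31.0, 22.1 and 42.5 CPM in normoxia and 334, 385 and 326 CPM in hypoxia (3.45 ± 0.27, adjusted p = 7.08e-06). VLDLR, a lipoprotein receptor placed on this list, rose from 5.27, 4.24 and 5.98 to 41.3, 41.4 and 32.9 CPM (2.90 ± 0.22). Targets of the ATF4 branch went both ways, and the stress factor ATF3 rose from 19.1, 21.1 and 15.2 to 38.1, 30.5 and 29.0 CPM (0.82 ± 0.21, adjusted p = 0.0241, and 0.128 without normoxic replicate 1). PSPH, the last enzyme of serine synthesis, fell from 98.8, 84.0 and 74.9 to 32.6, 27.0 and 42.8 CPM (-1.33 ± 0.22, adjusted p = 0.00302) and was called throughout. PSAT1, the enzyme before it, CHAC1, which degrades glutathione, and DDIT3 (CHOP) fell, with log2 fold changes of -1.08 ± 0.26, -1.46 ± 0.30 and -0.93 ± 0.23. PSAT1 and DDIT3 lost their call without normoxic replicate 1 (adjusted p = 0.122 and 0.145), and CHAC1 without normoxic replicate 2. Of 24 tested chaperones and unfolded protein response genes, ERO1L (ERO1A, an oxidase for disulfide bonds) was the only member called throughout and rose from 75.2, 57.6 and 80.1 to 396, 380.2 and 252 CPM (2.27 ± 0.25, adjusted p = 0.000123). Its relative ERO1LB (ERO1B) was lower in each hypoxic library, at 27.7, 26.7 and 19.0 against 11.5, 13.5 and 12.6 CPM (-0.96 ± 0.21, adjusted p = 0.0132, and 0.11 without normoxic replicate 1).

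The hormone receptors themselves did not pass the test, and few estrogen-regulated genes were called. ESR1, the estrogen receptor, was at 182, 185 and 191 CPM in normoxia and 144, 178 and 116 CPM in hypoxia. Each hypoxic library was below each normoxic library, and the change did not pass the test (-0.35 ± 0.21, adjusted p = 0.282, and 0.0429 for -0.46 with the GC and length correction and the replicate block). PGR, the progesterone receptor and a classical estrogen target, was at 661, 707 and 761 and 821, 993 and 575 CPM, which overlapped (0.17 ± 0.25, adjusted p = 0.687). GREB1, a cofactor and target of the receptor, was at 381, 456 and 307 and 445, 519 and 297 CPM (0.14 ± 0.26). The luminal factors GATA3 and FOXA1 and the cell cycle gene CCND1 had log2 fold changes of 0.18 ± 0.23, 0.03 ± 0.21 and 0.36 ± 0.23, none of which passed. Of 40 tested receptor and receptor-regulated genes, 2 were upregulated and 4 were downregulated, or 4 and 6 with the replicate block, and the median was 0.15. Over all genes tested the shares were 6.55% and 6.69%, or 9.09% and 10.5% with the block.

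The estrogen-regulated genes that did change went in both directions. SERPINA1, α1-antitrypsin, rose from 182, 137 and 208 to 502, 564 and 526 CPM (1.59 ± 0.23, adjusted p = 0.00117) and was the only member called throughout. STC2, a secreted glycoprotein, rose from 836, 1136 and 1241 to 2113, 2596 and 1978 CPM (1.06 ± 0.26, adjusted p = 0.0215, and 0.161 without normoxic replicate 1). AGR2 and AGR3 are protein disulfide isomerases of luminal cells. AGR2 was at 1596, 1785 and 869.8 CPM in normoxia and 558, 529 and 651 CPM in hypoxia (-1.29 ± 0.29, adjusted p = 0.0146, and 0.122 without normoxic replicate 1). AGR3 was at 207, 237 and 60.0 and 52.1, 40.7 and 46.6 CPM (-1.85 ± 0.38, adjusted p = 0.0103, and 0.11 without that library), so normoxic replicate 3 lay close to the hypoxic libraries and replicates 1 and 2 carried the difference. The 2 libraries that were high in AGR3 were also the 2 that were high in MALAT1, and the part of that library difference in the AGR3 result was not tested. SUSD3 and TPD52L1 had log2 fold changes of -0.80 ± 0.23 and -0.79 ± 0.22, calls that were lost without normoxic replicate 1 (adjusted p = 0.13 and 0.166). TFF1 had 0.789 to 3.21 CPM in normoxia and 3.56 to 7.30 CPM in hypoxia, short of the threshold (1.44 ± 0.47, adjusted p = 0.0575) but past it with the replicate block (adjusted p = 0.00787). The block also brought in CTSD, cathepsin D, as upregulated (0.80 ± 0.32, adjusted p = 0.026 against 0.116) and PDZK1, a scaffold protein, as downregulated (-0.74 ± 0.24, adjusted p = 0.03 against 0.0567). The receptor cofactor NRIP1, the luminal stress factor XBP1 and the prolactin receptor PRLR did not pass in either fit (0.16 ± 0.29, 0.28 ± 0.27 and 0.13 ± 0.27).

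Of 22 tested luminal identity genes, 2 were upregulated (against 6.55% of all genes tested) and none was downregulated. With the replicate block 7 were upregulated (against 9.09% of all genes tested), and without normoxic replicate 1 the number was 0. The median was 0.39, and 0.17 with the GC and length correction. MUC1, the luminal surface mucin, rose from 221, 212 and 291 to 642, 602 and 687 CPM (1.41 ± 0.23, adjusted p = 0.00255, and 0.0509 without normoxic replicate 1). ELF3, an epithelial transcription factor, rose by 0.84 ± 0.21 (adjusted p = 0.0219, and 0.147 without that library). KRT19 was at 3199, 2786 and 4803 CPM in normoxia and 5762, 6008 and 9232 CPM in hypoxia, without overlap (0.96 ± 0.31, adjusted p = 0.0575, and 0.0195 with the replicate block). KRT8, KRT18 and CDH1 (E-cadherin) likewise passed only with the block, with adjusted p = 0.0254, 0.0397 and 0.04 against 0.0831, 0.117 and 0.0644 without it. Of 17 tested basal and mesenchymal genes, 3 were upregulated and none was downregulated (median 0.72, from 17 positive values). CDH3 (P-cadherin) was at 30.8, 32.0 and 45.5 CPM in normoxia and 81.1, 99.7 and 86.3 CPM in hypoxia (1.30 ± 0.21, adjusted p = 0.00278). VIM and TGFBI stayed low, at 0.882, 1.10 and 0.806 against 2.03, 4.16 and 4.02 CPM and 0.160, 0.0329 and 0.137 against 1.4, 0.747 and 1.14 CPM (1.87 ± 0.38 and 3.34 ± 0.64). None of these 3 was called without normoxic replicate 1 (adjusted p = 0.052, 0.0902 and 0.0569). The mesenchymal regulator SNAI1 did not pass (0.47 ± 0.46, adjusted p = 0.519). In bulk RNA a change in the share of cells that express a gene and a change in RNA per cell cannot be told apart.

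**Figure D4:**
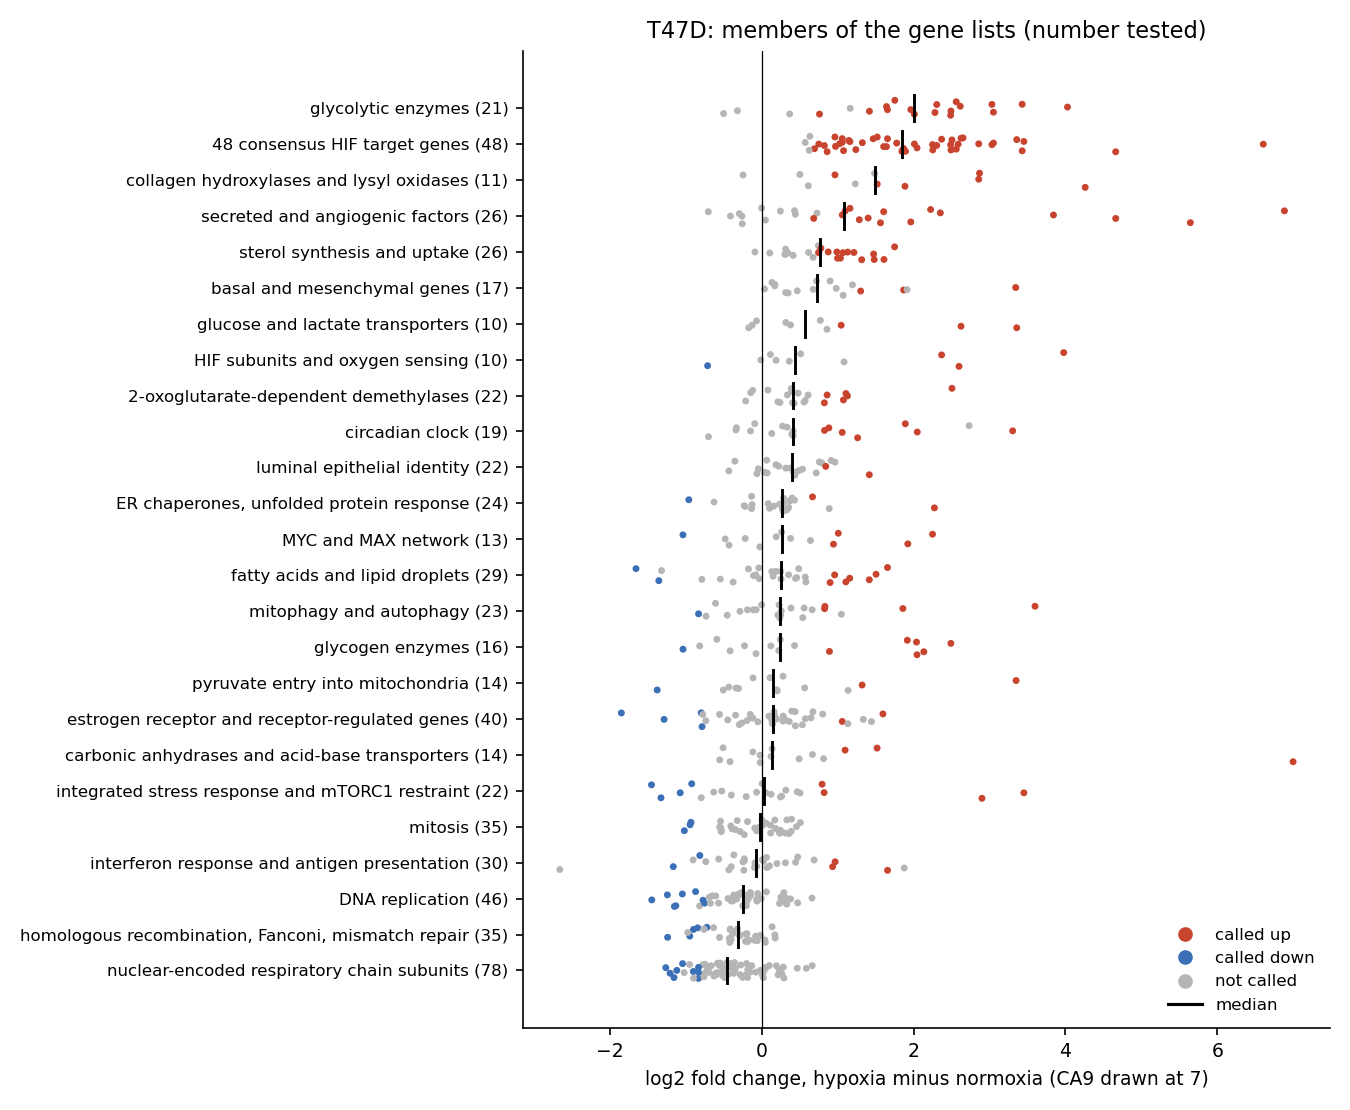
Log2 fold change of hypoxia against normoxia (x axis) for tested members of the gene lists (y axis, number tested in brackets), upregulated genes in red, downregulated in blue, genes not called in gray, with the list median as a black line and CA9 drawn at 7. Glycolytic enzymes have the highest median (2.01) and respiratory chain subunits the lowest (-0.46).

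Genes of the dividing cell were lower in part. Of 46 tested DNA replication genes, 8 were downregulated (against 6.69% of all genes tested) and none was upregulated. With the replicate block 14 were downregulated (against 10.5%). The median was -0.26, and it went from -0.40 without hypoxic replicate 1 to -0.12 without hypoxic replicate 2. GINS2, a subunit of the replicative helicase, was at 377, 422 and 228 CPM in normoxia and 152, 95.4 and 185 CPM in hypoxia (-1.25 ± 0.29, adjusted p = 0.0177). RFC4, of the clamp loader, was at 183, 142 and 97.8 and 73.2, 51.3 and 67.7 CPM (-1.14 ± 0.25). POLE2 and ORC6, of the leading-strand polymerase and the origin recognition complex, changed by -1.45 ± 0.29 and -1.15 ± 0.28. For these 4 genes normoxic replicate 3 was the lowest of its group. No DNA replication gene was called without normoxic replicate 1 or without normoxic replicate 2 (adjusted p = 0.13, 0.121, 0.104 and 0.152 for GINS2, RFC4, POLE2 and ORC6 without normoxic replicate 1). Of 35 tested homologous recombination, Fanconi and mismatch repair genes, 5 were downregulated (against 6.69%), 9 with the replicate block (against 10.5%), and none was upregulated. The median was -0.32, and it went from -0.51 without hypoxic replicate 1 to -0.16 without normoxic replicate 1. FANCB was at 15.3, 13.5 and 7.03 CPM in normoxia and 6.65, 4.61 and 3.82 CPM in hypoxia (-1.24 ± 0.32, adjusted p = 0.0242), and FANCE and FANCA changed by -0.90 ± 0.24 and -0.85 ± 0.26. None of the repair genes was called without normoxic replicate 1 either (adjusted p = 0.175, 0.125 and 0.207 for FANCB, FANCE and FANCA). BRCA1, a central gene of this repair route, did not pass (-0.42 ± 0.32, adjusted p = 0.39).

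Of 35 tested mitotic genes, 3 were downregulated (against 6.69% of all genes tested), none was upregulated and the median was -0.03. Its sign was not stable, from -0.14 without normoxic replicate 2 to 0.07 without hypoxic replicate 2. The 3 were MAD2L1, HMMR and NUF2 (-1.02 ± 0.29, -0.95 ± 0.28 and -0.94 ± 0.26), and none was called without normoxic replicate 1 (adjusted p = 0.191, 0.251 and 0.223) or with the GC and length correction and the replicate block, where 4 members were called upregulated. MKI67, the proliferation marker, was at 224, 192 and 156 CPM in normoxia and 401, 305 and 75.8 CPM in hypoxia. Hypoxic replicates 1 and 2 were above all normoxic libraries and hypoxic replicate 3 was below them (0.45 ± 0.43, adjusted p = 0.496). Hypoxic replicate 3 was also the library low in long transcripts, and the part of transcript length in the MKI67 values was not tested beyond the GC and length correction, which with the replicate block gave -0.06 (adjusted p = 0.865).

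Sterol genes rose, and with them the brakes of the pathway. Of 26 tested genes of sterol synthesis and uptake, 15 were upregulated and none was downregulated (median 0.76), 22 with the GC and length correction and the replicate block, and 25 of the 26 had a positive value. The median over the list was 0.64, 0.86 and 0.98 in the 3 hypoxic libraries and 0.06, -0.13 and 0.20 in the 3 normoxic ones. MVD, which makes isopentenyl diphosphate, was at 105, 122.9 and 138 CPM in normoxia and 287, 394 and 550.0 CPM in hypoxia (1.75 ± 0.26, adjusted p = 0.00152). LSS, the cyclase that makes lanosterol, was at 130.1, 163 and 136 and 338, 455 and 398 CPM (1.47 ± 0.22, adjusted p = 0.00144). INSIG1 and INSIG2, which retain the sterol-sensing complex in the endoplasmic reticulum, were at 109, 87.0 and 86.3 and 17.4, 15.2 and 16.9 CPM in normoxia and at 230.2, 230.2 and 240.3 and 45, 46.3 and 46.4 CPM in hypoxia (1.31 ± 0.20 and 1.48 ± 0.18). These 4 were the members called throughout. DHCR7, the last enzyme on the way to cholesterol, rose from 197, 190.1 and 294 to 574, 736 and 766 CPM (1.61 ± 0.25, adjusted p = 0.00223, and 0.0509 without normoxic replicate 1). Without normoxic replicate 1 4 members were called, and without normoxic replicate 2, 7.

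Lipid genes beyond sterols were mixed. Of 29 tested genes of fatty acid synthesis, oxidation and lipid droplets, 7 were upregulated and 2 were downregulated (median 0.25). Over all genes tested the shares were 6.55% and 6.69%. SCD, the desaturase that makes oleate and needs oxygen to do so, was at 1535, 1489.8 and 2011 CPM in normoxia and 5089, 6443 and 4315 CPM in hypoxia (1.65 ± 0.28, adjusted p = 0.00339). ACSS2, which turns acetate into acetyl-CoA, rose from 46.6, 45.3 and 52.0 to 112, 149 and 123.2 CPM (1.41 ± 0.20, adjusted p = 0.000975) and was the only member called throughout. LPIN1 and FADS2 rose by 1.5 ± 0.27 and 1.16 ± 0.21. FASN, the fatty acid synthase, went from 1057, 1308 and 1229 to 2335, 2705 and 1939.5 CPM (0.96 ± 0.25, adjusted p = 0.0268), and was not called with the GC and length correction and the replicate block (adjusted p = 0.103). On the other side, CPT1B, which brings fatty acids into mitochondria, fell from 21.2, 34.1 and 6.33 to 7.68, 8.35 and 3.42 CPM (-1.66 ± 0.48, adjusted p = 0.0394), with an overlap between normoxic replicate 3 and the hypoxic libraries. PLIN5, a lipid droplet protein, overlapped in the same way (5.27, 6.43 and 2.01 against 1.42, 2.19 and 1.71 CPM, adjusted p = 0.045). Without normoxic replicate 1 the adjusted p was 0.0677 for SCD, 0.0659 for LPIN1, 0.0677 for FADS2, 0.177 for FASN, 0.192 for CPT1B and 0.215 for PLIN5.

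Clock and MYC network genes rose in part. Of 19 tested clock genes, 7 were upregulated (against 6.55% of all genes tested) and none was downregulated (median 0.41). Relative to the normoxic mean, the median over the list was 0.47, 0.57 and 0.56 in hypoxic replicates 1, 2 and 3. C1orf51 (CIART), a repressor of the clock activator complex, was at 4.33, 4.54 and 4.54 CPM in normoxia and 17.8, 17.4 and 20.3 CPM in hypoxia (4.13-fold, adjusted p = 8.07e-05). RORA, a nuclear receptor that drives the clock gene BMAL1, was at 0.535, 0.559 and 0.137 and 4.24, 5.86 and 1.95 CPM (3.30 ± 0.55, adjusted p = 0.00308). Both were called throughout, whereas the clock output factor DBP was not (1.26 ± 0.32, adjusted p = 0.0254, and 0.157 without normoxic replicate 1). Of 13 tested members of the MYC and MAX network, 4 were upregulated and 1 was downregulated (median 0.26, against shares of 6.55% and 6.69% over all genes tested). MXI1, an antagonist of MYC and a known HIF target, was at 9.12, 10.3 and 10.9 CPM in normoxia and 47.8, 59.2 and 37 CPM in hypoxia (2.25 ± 0.22, adjusted p = 5.53e-05). MYC itself rose from 50.3, 79.7 and 77.6 to 119, 154 and 144 CPM (1.01 ± 0.22, adjusted p = 0.0147, and 0.117 without normoxic replicate 1), as did MYCL1 (1.92 ± 0.28, called throughout). The activator and its antagonist were both higher in each hypoxic library. MXD4, another antagonist of MYC, rose from 56.3, 79.3 and 99.8 to 127, 155 and 171 CPM (0.94 ± 0.24, adjusted p = 0.0235, and 0.155 without that library). MLX, a partner of the glucose sensor MondoA, fell from 159.8, 176 and 128 to 66.4, 70.2 and 88.5 CPM (-1.04 ± 0.21, adjusted p = 0.00923, and 0.0793 without that library).

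BBC3 (PUMA), a pro-apoptotic BH3 protein, rose from 2.62, 2.50 and 2.28 to 8.0, 11.1 and 7.26 CPM (1.83 ± 0.27, adjusted p = 0.0014), and BTG2, an antiproliferative gene, from 9.06, 11.2 and 10.2 to 32.4, 42.6 and 26.9 CPM (1.74 ± 0.22, adjusted p = 0.000465). Both were called throughout. CDKN1A (p21), the cyclin-dependent kinase inhibitor, rose from 43.1, 36.3 and 49.7 to 161, 101 and 96.4 CPM (1.47 ± 0.24, adjusted p = 0.00271, and 0.052 without normoxic replicate 1). The death receptor FAS fell from 38.1, 44.1 and 21.7 to 13.2, 12.7 and 10.2 CPM (-1.52 ± 0.26, adjusted p = 0.00363, and 0.0544 without that library). C12orf5 (TIGAR), which lowers fructose 2,6-bisphosphate and so opposes glycolysis, fell from 9.54, 8.78 and 8.56 to 4.43, 4.08 and 6.50 CPM (-0.84 ± 0.26, adjusted p = 0.0466, and 0.198 without that library).

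Of 30 tested interferon and antigen presentation genes, 3 were upregulated and 2 were downregulated (median -0.08). This was near the shares over all genes tested, 6.55% and 6.69%. B2M, the light chain of class I molecules, was at 527, 626 and 274 and 206, 182 and 247 CPM (-1.17 ± 0.29, adjusted p = 0.0228). The B2M call was lost without normoxic replicate 1 (adjusted p = 0.149) and with the GC and length correction and the replicate block (adjusted p = 0.0525). HLA-B, a class I heavy chain, rose from 214, 156 and 225 to 346, 352 and 439 CPM (0.93 ± 0.23, adjusted p = 0.0212, and 0.118 without normoxic replicate 1). HLA genes are polymorphic and share stretches of sequence, so counts of unique fragments are uncertain for them.

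The 48 consensus HIF target genes of the study were chosen on cell lines that include these libraries, so their direction is no independent evidence. In T47D 45 of the 48 were upregulated, 47 with the replicate block, none was downregulated and the median was 1.85. The list median was 1.84, 1.91 and 1.81 in the 3 hypoxic libraries, so replicate 3 did not stand apart here as it did for the respiratory chain. For all 48 the hypoxic and normoxic libraries did not overlap. The change was largest for NDRG1, a growth-related cytoplasmic protein, at 2.11, 2.76 and 4.34 CPM in normoxia and 266, 354 and 285 CPM in hypoxia (6.61 ± 0.32). Smaller changes were those of AK4, a mitochondrial adenylate kinase, from 87.8, 83.6 and 85.6 to 300.4, 331 and 291 CPM (1.84 ± 0.20), of KCTD11, from 14.8, 16.4 and 18.3 to 60.6, 54.0 and 54.8 CPM (1.77 ± 0.19), and of ZNF395, from 34.8, 35.0 and 38.0 to 239, 238 and 201 CPM (2.65 ± 0.20). Of the 48, 30 were called throughout. The 3 that were not called were CTDSP1, NPEPPS and RBPJ.

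Outside these lists, the genes with the largest increase among those over 1 on the log2 CPM scale were mostly at or under 1 CPM in normoxia. MAP7D2, a microtubule-associated protein, was at 0.0267, 0.148 and 0.0514 CPM in normoxia and 7.23, 7.5 and 3.23 CPM in hypoxia (6.17 ± 0.56, adjusted p = 2.7e-05). PPFIA4, a liprin of the cell cortex, was at 0.214, 0.509 and 0.0857 and 21.9, 24.7 and 8.88 CPM (6.06 ± 0.55, adjusted p = 2.7e-05). For both genes hypoxic replicate 3 was the lowest of its group and still far above normoxia. CASP14, a caspase of epidermal differentiation, LRRC15, a leucine-rich repeat membrane protein, and FGD5, an exchange factor for CDC42, rose by 5.34 ± 0.58, 4.82 ± 0.50 and 4.54 ± 0.42. WISP2 (CCN5), a secreted matricellular protein known in estrogen receptor-positive breast cells, went from 0.374, 0.542 and 0.36 to 8.74, 14 and 12.2 CPM (4.76 ± 0.33, adjusted p = 2.73e-06). All 6 were called throughout.

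Downregulated genes had smaller changes and fewer were called throughout. DYNC1I1, an intermediate chain of cytoplasmic dynein, was at 2.33, 4.17 and 4.01 CPM in normoxia and 0.564, 0.617 and 1.04 CPM in hypoxia (-2.25 ± 0.40, adjusted p = 0.0047). EEF1E1 (AIMP3), a scaffold of the aminoacyl-tRNA synthetase complex, was at 85.5, 115 and 55.0 and 21.2, 18.8 and 29.0 CPM (-1.89 ± 0.27, adjusted p = 0.00121). Both groups were separate for each gene. IFRD1, a transcriptional coregulator, fell from 47.2, 44.7 and 25.4 to 12.9, 11.5 and 10.5 CPM (-1.75 ± 0.25, adjusted p = 0.00105), and TMEM50B, a membrane protein, from 127, 116 and 93.9 to 38.4, 33.9 and 47.5 CPM (-1.49 ± 0.21). C8orf46 and the pseudogene ZNF702P changed by -1.73 ± 0.26 and -1.67 ± 0.25. These 6 were called throughout. GPD1, which makes glycerol 3-phosphate in the cytosol, fell from 6.58, 4.6 and 9.94 to 0.684, 1.46 and 2.95 CPM (-2.06 ± 0.46, adjusted p = 0.0154, and 0.109 without normoxic replicate 1). The largest decreases varied more within a group. HERC2P3 is a pseudogene with near-identical copies and was at 33.4, 43.2 and 7.90 CPM in normoxia and 5.40, 6.67 and 0.866 CPM in hypoxia, so normoxic replicate 3 was close to the hypoxic libraries (adjusted p = 0.0184, and 0.14 without normoxic replicate 1). Within each replicate number its hypoxic library was the lower one, and the replicate block gave an adjusted p of 2.56e-05. ANKRD23 was at 4.33, 7.72 and 1.73 against 1.03, 1.14 and 0.394 CPM and TNFRSF25, a death receptor, at 5.93, 9.94 and 2.64 against 1.62, 1.85 and 1.28 CPM, and for both normoxic replicate 3 was again the lowest of its group. Their adjusted p was 0.0137 and 0.0129, 0.103 and 0.0984 without normoxic replicate 1, and 0.000975 and 0.00428 with the replicate block. Among the 5 downregulated genes with the highest CPM, which is not corrected for length, were CYCS, cytochrome c, at 685, 701 and 482 and 294, 243 and 396 CPM (-1.0 ± 0.26, adjusted p = 0.0252), and HMGB1 (-0.75 ± 0.23), and neither was called without normoxic replicate 1 (adjusted p = 0.153 and 0.237).

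The change in T47D was compared with the mean change of A549, HCT116 and PC3 cells for the HIF list and the estrogen receptor list, in one fit of all 24 libraries that adjusts over 16089 genes. It differed for 385 genes (2.39%), for 3 of 10 HIF list members and for 3 of the 30 estrogen list members whose difference could be estimated. EGLN1 rose more in T47D, by 2.44 on the log2 scale against 0.82 in A549, 2.37 in HCT116 and 1.14 in PC3 (difference 1.0 ± 0.19, adjusted p = 0.00373). CITED2 also rose more, by 2.66 against 2.44, 1.71 and 0.46 (difference 1.13 ± 0.25, adjusted p = 0.0126). HCT116 came close to T47D for EGLN1, and A549 for CITED2. CA12, which rose by 1.38, 1.58 and 0.65 in A549, HCT116 and PC3, had a change of -0.04 in T47D (difference -1.25 ± 0.20, adjusted p = 0.000833). EPAS1, AGR2 and ADCY9 differed as well, by -1.04, -2.59 and -0.79, and these 3 differences did not pass when HCT116 was left out of the comparison (adjusted p = 0.481, 0.138 and 0.0598). The other 10 estrogen list members in the fit, ESR1 and PGR among them, were at or near 0 in another line and gave no usable estimate (standard error over 100 on the log2 scale). EGLN3, the most strongly induced sensor in T47D, did not pass the test of the difference (0.68 ± 0.32, adjusted p = 0.36), nor did HIF1A (-0.05 ± 0.18, adjusted p = 1).

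**Figure D5:**
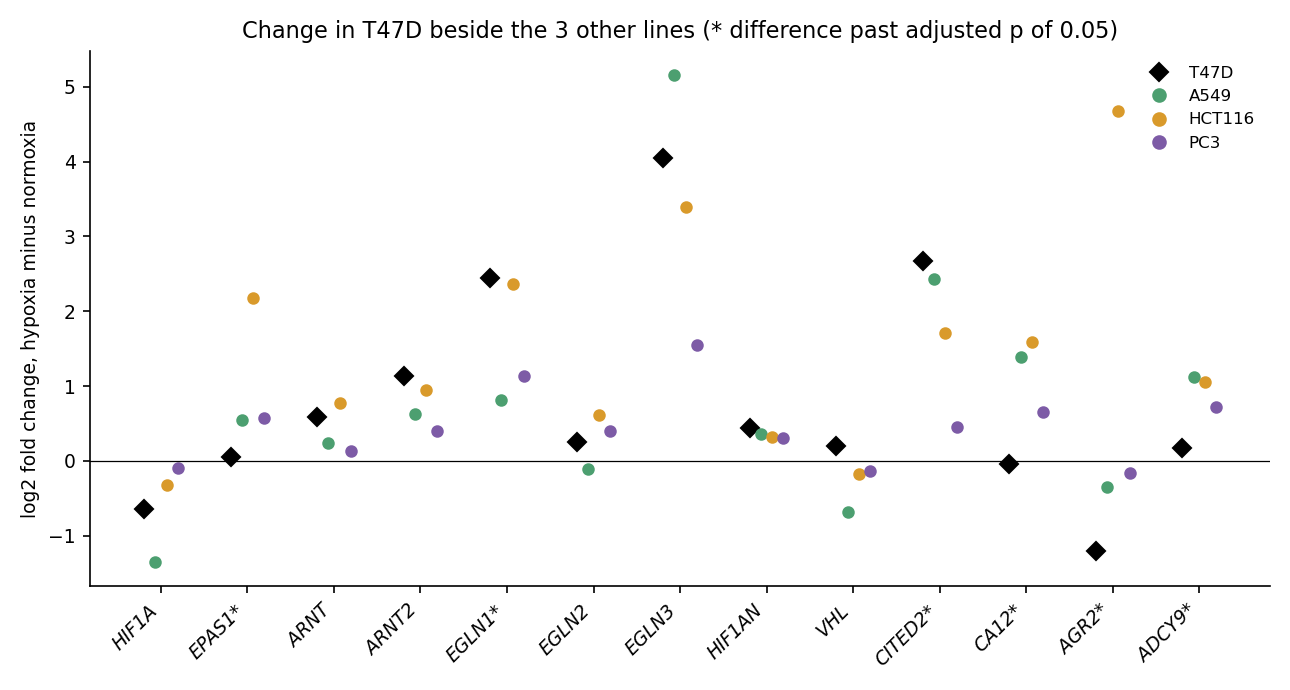
Log2 fold change of hypoxia against normoxia (y axis) in T47D (black diamonds), A549 (green), HCT116 (orange) and PC3 (purple) for the 10 tested HIF list genes and for CA12, AGR2 and ADCY9, in one fit of all 24 libraries; an asterisk marks genes whose change in T47D differed from the mean of the other 3 lines. CA12 is near 0 in T47D and above it in the other lines, and AGR2 in HCT116 rests on 0 to 4 counts per library.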

How the data were processed

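Poly-A RNA of T47D cells was extracted on columns with DNase treatment and made into directional libraries (NEBNext Ultra II). The deposited values are raw fragment counts per gene symbol, 1 table for each library, which the authors made by trimming with Trim Galore 0.3.3, aligning to GRCh37 with HISAT2 2.05, removing fragments without a unique position with Picard 2.0.1 and counting with HTSeq 0.5.4p3, versions as in the submitters' processing notes. Genes that have near-identical copies lose counts by this removal. The strand setting of the counting is not given in the sources used here, so antisense partners are uncertain. Libraries held 36578554 to 61004276 counts, and floors of 3 counts and counting intervals cover counting error only.

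From these counts, genes were filtered with filterByExpr, scaled by TMM and tested with the quasi-likelihood test of edgeR 4.0.16 (R 4.3.3), on the 6 T47D libraries alone. Adjusted p values are those of Benjamini and Hochberg over the whole set of genes tested, and calls needed an adjusted p under 0.05 and a change over 1.2-fold. The difference from other lines was a contrast in a fit of all 24 libraries. The same replicate numbers occur in both states. Deviations from the group means of libraries with the same number correlated across genes (r = 0.150, 0.325 and 0.302 for replicates 1, 2 and 3), each best with its own number, so the numbers were taken to pair the samples, as a hint from the data and not from the labels. DESeq2 1.42.0, other scalings and filters, the replicate block, each library left out and, chosen after the data were seen, replicate 3 left out of both states, a spline correction (5 degrees of freedom) for transcript length and GC content and a comparison without HCT116 were run as alternatives. GC content and length came from the longest GENCODE transcript of each gene and matched 93.3% of symbols.

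The gene lists and comparisons were chosen with earlier results of these data known. The genes named are the 12 largest changes in each direction without overlap and over 1 log2 CPM, the HIF list and cell type markers, up to 4 called members per list and direction, well-known genes of each pathway, the 5 most abundant called genes in each direction, the 5 largest uncalled changes, genes called in all fits without 1 library, and members of the lists compared with other lines. Some named genes and 1 list are not reported here. CTDSP1, NPEPPS and RBPJ were named after their values were seen.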

Additional observations from a re-analysis of the deposited data

Results flagged for a closer look

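A total of 6 differences between T47D and the mean change of the other 3 lines passed the test of the difference itself, out of 40 members whose difference could be estimated. EGLN1 rose more in T47D, by 1.0 on the log2 scale, and CITED2 by 1.13. CA12 responded less, with a difference of -1.25. EPAS1 (-1.04) and ADCY9 (-0.79) also responded less. AGR2, which fell in T47D, had a difference of -2.59. When single T47D libraries were left out, the differences of EGLN1 (adjusted p 0.000813 to 0.0249) and CA12 (0.00144 to 0.00428) passed each time. That of CITED2 did not pass without normoxic replicate 1 (0.0596) or normoxic replicate 2 (0.0689). That of EPAS1 passed only without normoxic replicate 1 (0.0116), and its adjusted p was otherwise 0.0566 to 0.181. AGR2 passed without either replicate 3 (0.0324 without the hypoxic and 0.0111 without the normoxic library), and ADCY9 without hypoxic replicate 2 (0.0392) or normoxic replicate 1 (0.0176). Against A549 and PC3 alone, a comparison added after the data were seen, EGLN1 (1.46, adjusted p = 0.000102), CITED2 (1.22, 0.0110) and CA12 (-1.06, 0.00516) passed and the other 3 did not. AGR2 had 0 to 4 counts in each HCT116 library, so its value of -2.59 rests on near-zero counts in that line.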

How the results depend on the processing

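Numbers of calls depended on the processing more than directions did. Upregulated and downregulated genes numbered 922 and 942, and 1281 and 1485 with the replicate block, 2231 and 1599 in one fit of all 24 libraries, 1289 and 1396 with DESeq2, 1053 and 1263 without the filter, 1599 and 1682 with the GC and length correction and the replicate block, and 957 and 814 with that correction alone, which shared 723 and 498 calls with the fit reported. Scaling by total counts gave 666 and 1412, moved the median of all genes to -0.12 and lowered the upregulated share of calls to 32.1%. Fits without 1 replicate or without both replicates 3 gave 180 to 2918 upregulated and 19 to 3140 downregulated genes, and 211 to 449 genes whose change differed from the other lines (544 with the replicate block). The lowest numbers were those without normoxic replicate 1 for the calls and without normoxic replicate 2 for the differences.

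Median log2 fold changes of some lists moved by more than the spread between replicates. With total counts they were 0.042 for pyruvate entry, 0.0088 for carbonic anhydrases, 0.11 for mitophagy and 0.30 for clock genes. A mean count of at least 50 gave 0.89 for secreted factors and 0.46 for basal genes, and the fit of 24 libraries 0.31 for mitophagy and 0.49 for clock genes. With the GC and length correction, without and with the replicate block, they were 0.95 and 0.94 for secreted factors, 0.15 and 0.14 for mitophagy, 0.17 and 0.18 for luminal genes, 0.32 and 0.31 for clock genes and 0.080 and 0.069 for the MYC network. Leaving out replicates gave 1.99 to 2.22 for glycolytic enzymes, 0.010 to 0.28 for carbonic anhydrases, 0.99 to 1.19 for secreted factors, 1.26 to 1.79 for collagen enzymes, 0.17 to 0.33 for mitophagy, 0.32 to 0.68 for demethylases, -0.026 to 0.26 for estrogen-regulated genes, 0.70 to 0.95 for sterol genes, 0.091 to 0.31 for fatty acid genes, -0.15 to 0.083 for interferon genes, 0.38 to 0.53 for clock genes and 0.20 to 0.43 for the MYC network. They also gave 0.066 to 0.21 for pyruvate entry, -0.76 to -0.27 for the respiratory chain, -0.066 to 0.14 for the integrated stress response and 0.10 to 0.47 for chaperones. The cause of these moves was not tested.

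Of 107 upregulated and 57 downregulated genes named, 107 and 56 were called with the replicate block (COX7B was not) and 74 and 8 in all fits without 1 library. The block brought in KRT8, KRT18, KRT19, CDH1, TFF1, CTSD, PDZK1, MYBL1, RNA45S5, AGAP11, CELF5 and MN1 and changed no other call of a named gene. One named gene, CELSR2, reversed, from 0.12 (not called) to -0.43 with the GC and length correction and the replicate block (adjusted p = 0.0443). EPO had 0 to 2 counts in the normoxic libraries, so the size of its change is imprecise, while its call was made in all 6 fits without 1 library.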

Other observations

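Several genes with large changes that did not pass the test in T47D passed with the replicate block. CELF5, an RNA-binding protein known from neurons, was at 2.22, 1.94 and 0.892 CPM in normoxia and 3.51, 6.27 and 2.22 CPM in hypoxia (adjusted p = 0.0743, and 0.0196 with the block). MN1, a transcriptional coregulator, was at 0.802, 2.22 and 2.62 and 3.83, 4.73 and 4.74 CPM (adjusted p = 0.0563 and 0.0173). RNA45S5, the ribosomal RNA precursor, was higher in each hypoxic library, at 993, 424 and 811 against 1164, 1094 and 4197 CPM, with replicate 3 far above the rest (adjusted p = 0.0524 and 0.0271), and its counts after poly-A selection also depend on how much ribosomal RNA was carried over, which was not tested. Among the most abundant upregulated genes was EEF2, the translation elongation factor, at 1368, 1665 and 2387 CPM in normoxia and 3295, 4099.9 and 3879 CPM in hypoxia (1.06 ± 0.28, adjusted p = 0.0285, and 0.196 without normoxic replicate 1). Among the most abundant downregulated genes, CALM2, a calmodulin gene, was at 1288, 1199 and 765 and 528, 399.6 and 714 CPM and PSMA6, a proteasome subunit, at 684, 725 and 387 and 262, 220.0 and 389 CPM, and neither was called without normoxic replicate 1 (adjusted p = 0.215 and 0.196). In PSMA6 hypoxic replicate 3 overlapped with normoxic replicate 3.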
